A study of Mus musculus with 8 samples.

Results

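The transcripts of 10 genes of the p53 damage response were followed in whole hippocampus of mice lacking Ctcf in forebrain neurons: Cdkn1a, Ccng1, Mdm2, Trp53, Bax, Bbc3, Pmaip1, Trp53inp1, Sesn1 and Gadd45a. They were chosen as p53 itself and direct targets in cell cycle arrest and cell death, and the choice was made with the knockout-minus-control differences of these same arrays known. The differences of the 10 genes are therefore a description, with no test. The array files name 13 probes for them on 22 spots per array, out of 39429 measured probes that name 30139 genes, and all 10 genes passed the filter on dim probes among 18334 genes tested. For 8 of the 10 genes 1 probe was present, Trp53inp1 had 2 probes and Cdkn1a had 3.

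All mice were C57BL/6, carried loxP-flanked Ctcf on both alleles and had gone through behavioural testing (open field, a sensorimotor battery, the Morris water maze and social approach) at 3 to 6 months of age. Conditional knockout (CKO) mice also carried Camk2a-Cre, a recombinase transgene under a promoter active in excitatory forebrain neurons, and the control mice (WT) had no Cre, so Ctcf loss and the transgene cannot be told apart, and cells that do not express the transgene keep their floxed Ctcf unrecombined. Each sample was RNA pooled from 3 mice, with 3 pools per genotype. Pool 1 of each genotype held 2 females and 1 male of 19 to 23 weeks and was run on 2 arrays, pool 2 held 3 females of 18 to 19 weeks, and pool 3 held 3 males of 15 to 17 weeks. By the array barcodes, slide 1 held the first arrays of pools 1 and 2 of both genotypes. Slide 2 held pool 3 and the second arrays of pool 1, so the slides differ in their mice too. CTCF is a zinc-finger protein that holds chromatin loops together with cohesin.

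p53, encoded by Trp53, is a transcription factor whose protein is held low by MDM2, a ubiquitin ligase, and is stabilised when DNA is damaged. Stabilised p53 binds paired half-sites near its target genes and raises their transcription, among them Cdkn1a for arrest, Bax, Bbc3 and Pmaip1 for mitochondrial cell death, and Mdm2 as negative feedback. Because p53 is controlled mainly at the protein level, its activity is usually read from several targets together. Cdkn1a can also be transcribed without p53. In neurons, which have left the cell cycle, the pathway is best known for its part in death after DNA breaks or excitotoxic injury.

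The promoters are shown because they were searched for matches to the p53 half-site. RefSeq windows on build GRCm38.p6, from 250 bases before to 50 bases after a start site, were on hand for 8 of the 10 genes, 12 windows in all, with more than 1 start for Cdkn1a, Bbc3 and Sesn1. The 250 bases before the start are printed in lower case with every match to the p53 half-site in capitals. The Cdkn1a upstream start lies on the + strand with its 250 bases at chr17:29090729-29090978, and the downstream start, also on the + strand, has them at chr17:29093519-29093768. Those of Ccng1 lie at chr11:40755287-40755536 on the - strand and those of Trp53 at chr11:69580109-69580358 on the + strand.
Cdkn1a upstream start: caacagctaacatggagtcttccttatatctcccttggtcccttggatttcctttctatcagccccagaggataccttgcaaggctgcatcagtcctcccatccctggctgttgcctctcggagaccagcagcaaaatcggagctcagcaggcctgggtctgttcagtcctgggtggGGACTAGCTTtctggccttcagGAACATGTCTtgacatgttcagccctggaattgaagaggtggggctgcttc
Cdkn1a downstream start: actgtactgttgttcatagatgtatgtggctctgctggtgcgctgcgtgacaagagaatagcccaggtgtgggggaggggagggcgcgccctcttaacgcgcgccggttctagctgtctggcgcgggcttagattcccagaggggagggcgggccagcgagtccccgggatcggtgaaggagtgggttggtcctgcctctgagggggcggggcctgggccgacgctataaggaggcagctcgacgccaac
Ccng1: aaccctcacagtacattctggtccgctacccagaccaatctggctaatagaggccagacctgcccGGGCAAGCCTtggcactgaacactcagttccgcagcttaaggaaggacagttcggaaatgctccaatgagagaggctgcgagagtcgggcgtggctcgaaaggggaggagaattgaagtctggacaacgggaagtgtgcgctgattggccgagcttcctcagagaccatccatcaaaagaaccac
Trp53: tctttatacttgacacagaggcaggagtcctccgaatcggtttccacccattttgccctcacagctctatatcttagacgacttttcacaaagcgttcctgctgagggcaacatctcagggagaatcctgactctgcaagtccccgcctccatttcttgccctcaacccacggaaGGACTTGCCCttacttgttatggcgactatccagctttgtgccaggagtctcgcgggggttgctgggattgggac

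The half-site was searched by its standard consensus, which is its own reverse complement, so that 1 match covers both strands. It matched 7 of the 12 windows, and 8.36% of 32851 windows of this length over all genes. As the genes were picked as p53 targets, this share has no test. The Cdkn1a upstream window held 2 matches, GGACTAGCTT beginning 73 bases before the start and GAACATGTCT beginning 51 bases before it, and the downstream window held 0. Single matches were GGGCAAGCCT in Ccng1 (185 bases before the start), GAACTTGCCT in Mdm2 (186), GGACTTGCCC in Trp53 (75), AGGCAAGCTT in Bax (201), AAGCTTGTTT in 1 of the Sesn1 windows (173) and GGGCTAGCCC in Gadd45a (40). A core of the CTCF motif, CCANNAGNNGGC on either strand, matched windows of Mdm2 (2 matches) and Bbc3, 2 of the 12 windows against 2.43% of all windows. None of the matches overlapped another. Such a match is a stretch of letters and not a measured binding site.

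Values below are log2 of the spot signal relative to the 75th percentile of the array, so that 0 is the level of a fairly bright spot, and a difference is the mean of the CKO pools minus that of the WT pools on this scale. The 75th percentile signal ran from 2112 to 5104 over the 8 arrays, each array had 59.2% to 66.0% of its spots flagged as detected above background, with 0 saturated. The dimmest array was the second array of WT pool 1. Ctcf itself was at 0.83, 1.12 and 1.04 in WT pools 1, 2 and 3 and at 0.18, 0.16 and 0.05 in the CKO pools, a difference of -0.87 (SE 0.13), so the labels hold for all 6 pools. In the test over all genes (limma, adjusted p threshold 0.05), 7 of 18334 were called higher in CKO, 0.0382% of them, and 1 lower, 0.00545%. With the pool number as a block the same test called 72 higher, 0.393%, and 31 lower, 0.169%, 103 in all, and all 8 genes called without the block were among them. In 5.73% of the genes tested every CKO pool lay above every WT pool, in 5.63% every CKO pool lay below, and 49.4% had a difference above 0. In bulk tissue fewer cells of a type and less RNA per cell cannot be told apart. Nothing in the labels says how the 3 mice of a pool were picked, and p-values set a difference against the spread between pools.

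Across the 10 genes the data showed higher signal in CKO for Cdkn1a, Ccng1, Trp53 and Pmaip1, with every CKO pool above every WT pool, and overlapping pools for Mdm2, Bax, Bbc3, Trp53inp1, Sesn1 and Gadd45a. That is 4 of 10 genes, against 5.73% of all genes tested, and 0 of 10 lay fully below, against 5.63%. Differences were above 0 for 6 genes (against 49.4% of all genes) and below 0 for 4, with a median of 0.12. None of the 10 passed the limma threshold (0 of 10 against the 0.0382% and 0.00545% above), and 1, Cdkn1a, passed with the pool block (against 0.393% and 0.169%). Ccng1 was the 1 member that passed with first arrays alone, where 0.73% of 18903 genes did, and also when only the second WT pool 1 array was left out (0.731% of 18735 genes). Nothing is read from these counts, as the genes were chosen on this contrast.

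**Figure D1:**
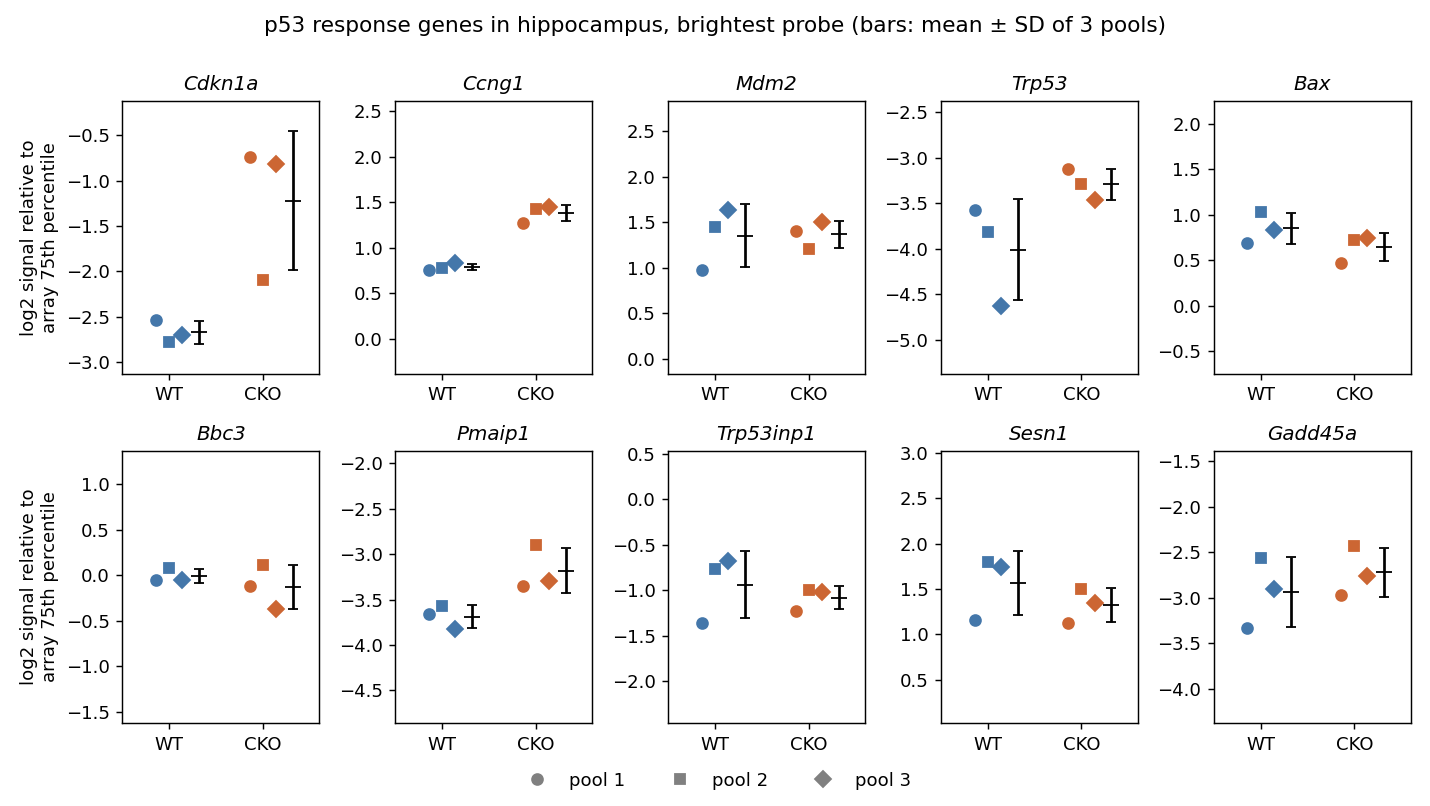
The 10 genes by genotype, each read by its brightest probe, as log2 signal relative to the array 75th percentile; points are the 3 WT (blue) and 3 CKO (orange) pools, marked by pool number, and the bars give mean ± SD of the 3 pools. All panels span 3 log2 units (the vertical position differs), so heights can be compared as differences only. CKO points lie wholly above WT points for Cdkn1a, Ccng1, Trp53 and Pmaip1.

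Cdkn1a encodes p21, the inhibitor of cyclin-dependent kinases through which p53 halts the cell cycle. The array carries its brightest probe, against the 3' part of NM_007669, on 10 spots. Processed signal on this probe was 677 and 412 on the first and second arrays of WT pool 1, 679 in WT pool 2 and 609 in WT pool 3. It was 2225 and 1828 on both arrays of CKO pool 1, 1207 in CKO pool 2 and 2706 in CKO pool 3. Every CKO array was brighter than every WT array, and CKO pool 2 was the lowest of the CKO pools. Scaled to the array, the WT pools 1, 2 and 3 were at -2.53, -2.77 and -2.70 (mean -2.67 ± 0.12, SD, n = 3). The CKO pools were at -0.74, -2.10 and -0.82 (mean -1.22 ± 0.76). The difference was 1.45 (SE 0.34), a 2.73-fold higher level in CKO. Within pool numbers it was 1.79, 0.67 and 1.88 for pools 1, 2 and 3, so pools 1 and 3 stood far from their WT partners and pool 2, the pool of females, stood nearer. Sex, age and slide differ between the pool numbers with 1 pool of each kind per genotype, and their part in this was not tested. Without CKO pool 2 the difference was 1.89, and without CKO pool 1 it was 1.21.

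The replicate spots show how precisely each array read the probe. Their SD within an array was 0.04 to 0.08 on 7 arrays and 0.26 in CKO pool 2, where 1 spot, not marked as an outlier, read 718 and lay at -2.83. The median of the CKO pool 2 spots was -2.03, against their mean of -2.10, so that pool stays the lowest of the CKO pools by either summary. On the first array of WT pool 1 1 spot, and on the second array 2 spots, were marked as outliers and left out. The pair of WT pool 1 arrays differed by 0.34 and that of CKO pool 1 by 0.17, and the pool 1 difference was 1.88 on the first arrays and 1.70 on the second arrays.

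**Figure D2:**
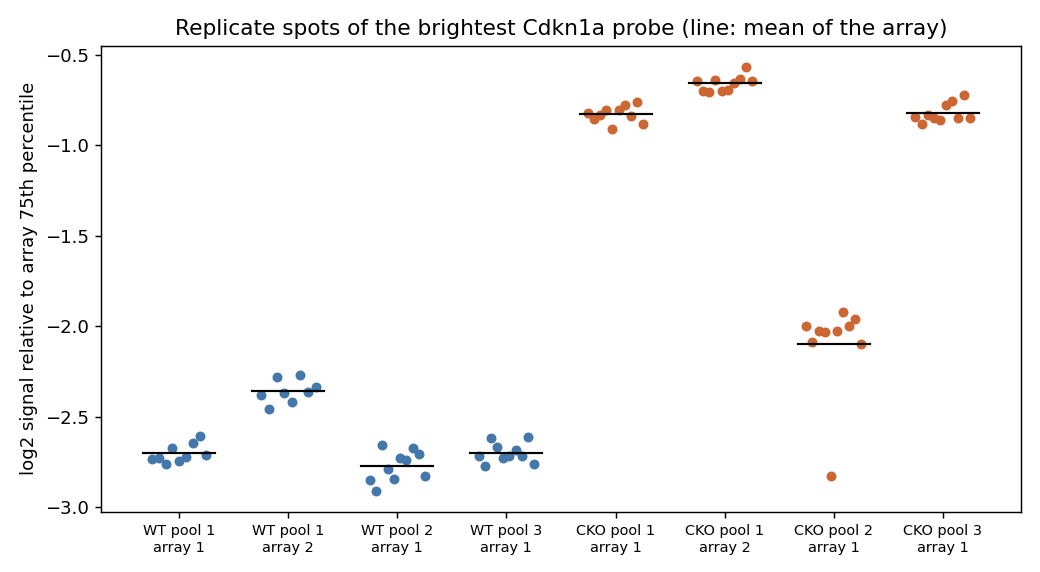
Every replicate spot of the brightest Cdkn1a probe on each of the 8 arrays, as log2 signal relative to the array 75th percentile; blue is WT, orange is CKO, and the line is the mean over the array's spots. CKO pools 1 and 3 sit between -0.91 and -0.57, CKO pool 2 has 1 spot at -2.83, inside the WT range, and its other spots above it, and the WT spots lie between -2.91 and -2.27.

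A pair of dimmer Cdkn1a probes read other parts of the transcript. The first 30 bases of each of the 3 probes, as listed in the array files, are given because the probes do not overlap in sequence and did not give the same picture; no part is set in capitals.
NM_007669 from base 1619: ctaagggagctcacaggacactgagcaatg
ENSMUST00000122348 from base 147: tggggtagtttccatagtgacccgggtcct
NM_001111099 from base 55: aatggagacagagaccccagataattaagg

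The probe against ENSMUST00000122348 was not well above background on any of 4 WT arrays and was above it on 4 of 4 CKO arrays. It was at -5.55, -5.62 and -5.78 in the WT pools and at -3.80, -5.37 and -4.49 in the CKO pools. The WT values are readings below the level that counts as above background, so no order of the genotypes is read pool by pool. CKO pool 2 was again the lowest of the CKO pools. Set against the lowest signal that counts as above background, the CKO level was at least 1.51-fold higher. The probe against the 5' end of NM_001111099 was above background on 2 of 4 WT and 3 of 4 CKO arrays. Its WT pools were at -3.59, -5.80 and -5.79 and its CKO pools at -5.03, -4.99 and -4.20. Here WT pool 1 was the highest of all and the genotypes overlapped, with a difference of 0.32 (SE 0.54).

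Ccng1 encodes cyclin G1, a p53 target that recruits a phosphatase to MDM2. Its 1 probe was at 0.76, 0.77 and 0.83 in the WT pools (SD 0.04) and at 1.28, 1.43 and 1.44 in the CKO pools (SD 0.09). The groups stood apart with little spread within either. The difference was 0.59 (SE 0.12), 1.51-fold, and 0.52, 0.65 and 0.61 within pool numbers 1, 2 and 3. Unlike Cdkn1a, Ccng1 was as high in CKO pool 2 as in the other CKO pools. Over the alternative settings, the Ccng1 difference ran from 0.53 to 0.65.

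Trp53 encodes p53. Its probe was at -3.58, -3.82 and -4.63 in the WT pools and at -3.12, -3.29 and -3.46 in the CKO pools. All CKO pools were above the WT pools, and WT pool 3 was well below the other two WT pools. The difference was 0.72 (SE 0.30), 1.65-fold, and 0.46, 0.53 and 1.17 within pool numbers. Without WT pool 3 it was 0.41. With normexp background correction or the slide as a block the CKO pools or arrays no longer all lay above the WT ones. Mdm2, whose product marks p53 for destruction and whose transcription p53 raises, was at 0.97, 1.45 and 1.64 in the WT pools and at 1.40, 1.21 and 1.50 in the CKO pools. The genotypes overlapped, and the difference of 0.02 (SE 0.18) was 0.43 in pool 1 and -0.24 and -0.14 in pools 2 and 3. The Mdm2 difference was -0.04 with median scaling and -0.06 without the second array of WT pool 1, so it has no settled sign.

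Of the 3 death genes, Pmaip1, which encodes NOXA, a BH3-only protein that neutralises MCL1, was the one with separated pools. It was at -3.66, -3.58 and -3.83 in the WT pools and at -3.36, -2.90 and -3.29 in the CKO pools. The lowest CKO pool lay above the highest WT pool, with a difference of 0.51 (SE 0.21), 1.42-fold. In pool 1 the Pmaip1 difference was 0.58 on the first arrays and 0.02 on the second arrays, and on slide 2 alone the whole difference was 0.28. Bax, the effector that opens the outer mitochondrial membrane, was at 0.69, 1.03 and 0.84 in the WT pools and at 0.47, 0.73 and 0.75 in the CKO pools. The genotypes overlapped through WT pool 1, although Bax was lower in CKO in each pool number. Its difference was -0.20 (SE 0.14). Bbc3, which encodes PUMA, a BH3-only activator of BAX, was at -0.05, 0.08 and -0.05 in the WT pools and at -0.12, 0.11 and -0.37 in the CKO pools. The Bbc3 pools overlapped, with a difference of -0.12 (SE 0.16). It was 0.02 on slide 1 (pools 1 and 2) and -0.24 on slide 2 (pools 1 and 3).

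Among the remaining targets, Sesn1 encodes sestrin 1, which restrains mTORC1 signalling under stress. It was at 1.16, 1.80 and 1.74 in the WT pools and at 1.12, 1.50 and 1.34 in the CKO pools. The WT pool 1 value lay among the CKO values and the other WT pools above them. The Sesn1 difference was -0.24 (SE 0.19), below 0 in each pool number. The second array of WT pool 1 decided the overlap of Bax and Sesn1: that array read Bax 0.47 and Sesn1 0.83 lower than its mate. Without it both genes had every CKO pool below every WT pool, with differences of -0.28 and -0.38. The second array of CKO pool 1 was shifted the same way, by -0.27 for Bax and -0.47 for Sesn1. With first arrays alone, which leaves out both, the pools were still separated, with differences of -0.24 and -0.30. Trp53inp1, which encodes a p53-induced nuclear protein that promotes p53 activity and autophagy, was at -1.36, -0.77 and -0.68 in the WT pools and at -1.23, -0.997 and -1.02 in the CKO pools by its brighter probe. These pools overlapped, with a difference of -0.14 (SE 0.21). The second WT pool 1 array read this probe 0.58 below its mate, and without that array the difference was -0.24. With first arrays alone the difference was -0.22. Its dimmer probe, above background on 3 of 4 arrays of each genotype, differed by -0.17 (SE 0.35).

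Gadd45a encodes a stress sensor that binds PCNA and p21 and takes part in repair and G2 arrest. It was at -3.33, -2.57 and -2.90 in the WT pools and at -2.97, -2.43 and -2.76 in the CKO pools. Pools of the same number lay near each other and the genotypes overlapped, with a difference of 0.21 (SE 0.25) that was above 0 in each pool number. The second WT pool 1 array read Gadd45a 1.12 below its mate, and without that array the difference was 0.03. The second CKO pool 1 array was shifted by -0.53 from its mate, and with first arrays alone the difference was 0.11.

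**Figure D3:**
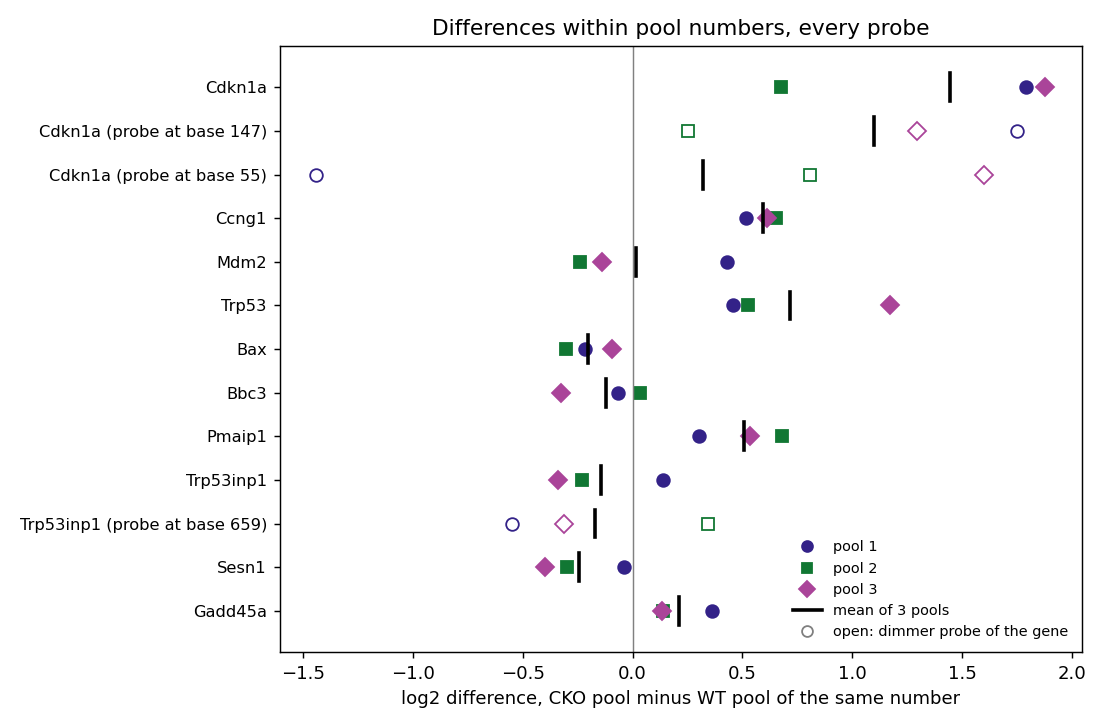
The log2 difference between the CKO and WT pool of the same number for all 13 probes. Symbols mark pool numbers 1, 2 and 3, and open symbols are the dimmer probes of Cdkn1a and Trp53inp1. For the probe at base 147 the WT values were not well above background. The black bar is the mean of the 3 pool numbers. The Ccng1 differences lie between 0.52 and 0.65, those of Cdkn1a split into 0.67 for pool 2 and 1.79 and 1.88 for pools 1 and 3, and the NM_001111099 probe (base 55) runs from -1.44 to 1.60.

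The genes did not follow Cdkn1a alike. Over the 6 pools Pearson's r with the brightest Cdkn1a probe was 0.79 for Ccng1, 0.65 for Trp53, 0.47 for Pmaip1, 0.16 for Mdm2 and -0.02 for Gadd45a, and -0.42 for Trp53inp1, -0.64 for Sesn1, -0.70 for Bax and -0.71 for Bbc3. These values are a description over 6 pools that fall into the genotypes, and they largely restate whether CKO was higher. Of all genes tested, the 5 with the highest r were Abca5 (0.99, difference 0.23), Slc25a25 (0.99, 0.38), Cyp3a13 (0.99, 0.14), Kcnq1ot1 (0.99, 0.43) and Tpm1 (0.99, 0.42). Each had every CKO pool above the WT pools and CKO pool 2 the lowest of the CKO pools. That pattern follows from picking them by their likeness to Cdkn1a.

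The pool order of Cdkn1a, with CKO pools 1 and 3 high and CKO pool 2 low, was also that of the activity-regulated genes, the immediate early genes that neurons transcribe within minutes of firing. The mean over 10 of the 11 listed genes (Egr2 did not pass the filter) was 0.24, -0.26 and 0.02 in the WT pools and 2.03, -0.43 and 1.77 in the CKO pools (log2, with the WT mean set to 0). CKO pools 1 and 3 were far above all WT pools and CKO pool 2 was below them. Their summed level ran from 16.5 to 22.9 times the 75th percentile signal in WT pools and from 14.0 to 74.96 in CKO pools. All 10 had a mean difference above 0, with 0 past the threshold with or without the block.

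Reactive astrocyte genes had another order. Their mean over 9 of 10 listed genes (Steap4 did not pass the filter) was 0.17, 0.10 and -0.26 in the WT pools and 0.71, 1.00 and 0.44 in the CKO pools, with CKO pool 2 the highest. Their summed level ran from 8.31 to 9.87 in WT and from 12.2 to 17.4 in CKO, and 3 of the 9 (Serpina3n, Gfap and Timp1) were called higher with the pool block (against 0.393% of all genes) and 0 without it. Of the 9, 8 were higher in CKO, and 5 had every CKO pool above every WT pool (against 5.73% of all genes). The 1 lower gene, Cd44 (-0.16), had every CKO pool below every WT pool. Microglial genes, 10 of 10 measured, had means of 0.25, -0.14 and -0.10 in WT and 0.21, 0.51 and -0.04 in CKO, with sums of 43.6 to 62.3 and of 49.8 to 71.8. Excitatory neuron genes, 8 of 9 measured (Prox1 did not pass), had means of 0.06, 0.08 and -0.14 in WT and -0.45, -0.43 and -0.22 in CKO, with sums of 26.0 to 32.5 and of 23.6 to 28.2. With the pool block 2 of these 8 (Wfs1 and C1ql2) were called lower (against 0.169% of all genes) and 0 without it. Every CKO pool lay below every WT pool for 4 of 8 (against 5.63% of all genes). The other way, 3 of the 8 were higher in CKO, and 1 of them, Slc17a7 (0.35), had every CKO pool above every WT pool. Choroid plexus genes, 9 of 9 measured, were at -1.20 in WT pool 1 and between 0.44 and 0.97 in the other 5 pools, with sums of 52.0 to 118 in WT and of 109 to 149.5 in CKO. Oligodendrocyte genes, 8 of 8 measured, had means of 0.01, -0.10 and 0.09 in WT and 0.26, 0.32 and 0.17 in CKO, with sums of 145 to 160.3 and of 159 to 188. Of 7 proliferation markers 3 were measured, summing to 0.45 to 0.57 in WT and 0.42 to 0.61 in CKO. The part of neuronal firing, glial change, neuron loss or dissection in the Cdkn1a and Ccng1 differences was not tested.

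**Figure D4:**
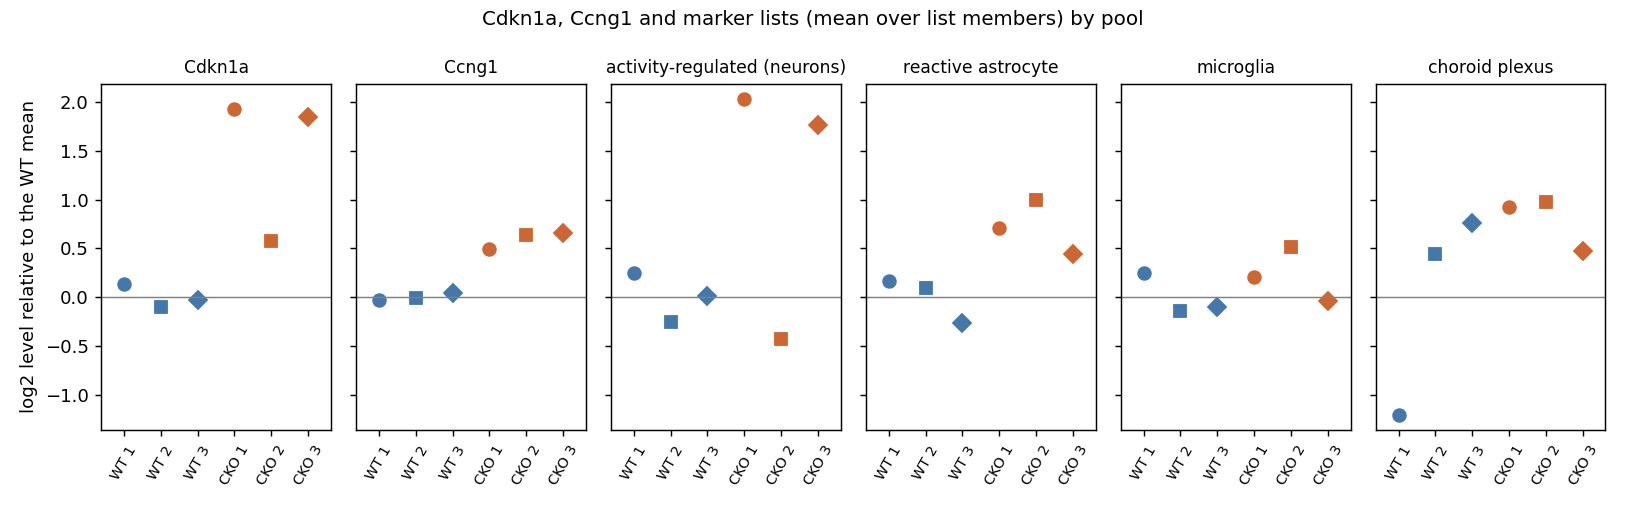
Cdkn1a and Ccng1 (brightest probes) and the mean of 4 marker lists in each pool, as log2 level relative to the mean of the WT pools; blue is WT and orange CKO, with symbols for pool numbers 1, 2 and 3. CKO pool 2 is the lowest CKO pool for Cdkn1a and for the activity-regulated list (-0.43) and the highest for the reactive astrocyte list (1.00), while the 3 CKO pools are close together for Ccng1.

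The wider pathway was read from 9 lists of other p53 and cell cycle genes, 89 of which passed the filter on dim probes. Of the 89, 46 were higher and 43 lower in CKO, with a median difference of 0.01, against -0.0032 over all genes. None passed the limma threshold over all genes (0 of 89 in either direction). An unadjusted p under 0.05 was found for 5 of the 89, and for 5.48% of all genes tested, a like share. With the pool block 1 of the 89, Gadd45b, passed as higher, against the 0.393% of all genes called higher in that fit. Every CKO pool lay above every WT pool for 4 of them, 4.49%, and below for 4, 4.49%, near the 5.73% and 5.63% of all genes. The smallest adjusted p of the 89 in the fit without the block was 0.611 (limma), for Dram1, which passed the filter only through CKO.

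Arrest and repair targets (12 of 16 measured, 8 higher, 4 lower, median 0.06) went both ways. Btg2, an antiproliferative p53 target that is also an immediate early gene, was at -0.60, -1.10 and -1.20 in WT and -0.03, -1.08 and 0.61 in CKO, a difference of 0.80 (SE 0.38) with CKO pool 2 inside the WT range. Ercc5, a nuclease of nucleotide excision repair, had every CKO pool above every WT pool and a difference of 0.32 (SE 0.14). Ccng2, the paralog of Ccng1, had every CKO pool below every WT pool and a difference of -0.46 (SE 0.18), and Ddb2, a sensor of UV damage, likewise, with -0.23 (SE 0.14). The 2 cyclin G genes thus differed in opposite directions, neither past the threshold.

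Cell death targets (15 of 16 measured, 7 higher, 8 lower, median -0.01) held Dram1, a lysosomal membrane protein of autophagy, at -4.36, -4.32 and -4.34 in WT and -3.68, -3.87 and -3.39 in CKO. Its pools did not overlap, and the difference was 0.69 (SE 0.21). The Dram1 probe was above background on 3 of 4 WT and 4 of 4 CKO arrays. It thus passed the filter only through CKO, the genotype where it was higher, and nothing is read from its separation. Apaf1, the scaffold of the apoptosome, had every CKO pool below every WT pool, with a difference of -0.38 (SE 0.18). In the list of the BCL2 family and apoptosome (15 of 18 measured, 5 higher, 10 lower, median -0.09), Casp9, the caspase that APAF1 activates, was separated in the same way, with a difference of -0.35 (SE 0.14). The pro-death members Bak1 (-0.37), Hrk (-0.37) and Bok (-0.29) had overlapping pools. None of these passed the threshold, with the pool block or without.

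The paralogs of Gadd45a stood apart from it in value. Gadd45b, a stress and activity-inducible gene linked to DNA demethylation in neurons, was at 1.23, 0.83 and 0.37 in WT and 3.04, 1.17 and 2.08 in CKO. CKO pool 2 lay inside the WT range and the other CKO pools above it. The difference was 1.29 (SE 0.42), 2.44-fold, with a limma adjusted p of 0.705, and of 0.0483 with the pool block. Gadd45g was at 2.70, 2.36 and 2.54 in WT and 3.70, 2.63 and 3.28 in CKO, a difference of 0.67 (SE 0.25, limma adjusted p 0.811, and 0.102 with the block). Both were lowest in CKO pool 2 among the CKO pools, as Cdkn1a and Btg2 were.

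Regulators of p53 and damage sensors (16 of 21 measured, 9 higher, 7 lower, median 0.02) held no gene with separated pools. The ubiquitin ligases Cop1 and Rchy1 differed by 0.28 (SE 0.15) and 0.17 (SE 0.20), the phosphatase Ppm1d by -0.23 (SE 0.16) and the deacetylase Sirt1 by -0.22 (SE 0.22). Targets in metabolism and stress (12 of 12 measured, 7 higher, 5 lower, median 0.04) ranged from -0.16 for Ddit4, an mTORC1 inhibitor, to 0.18 for Sesn2, the paralog of Sesn1. The p53 relatives Trp73 and Trp63 differed by -0.11 (SE 0.27) and -0.03 (SE 0.29). Of the other inhibitors of cyclin-dependent kinases (5 of 6 measured, 2 higher, 3 lower, median -0.17), Cdkn1b, which encodes p27, differed by 0.27 (SE 0.19) and Cdkn1c, which encodes p57, by 0.29 (SE 0.21), both with overlapping pools. Cyclins, their kinases and PCNA (10 of 14 measured, 6 higher, 4 lower, median 0.02) held Cdk2, the main kinase that p21 blocks, with every CKO pool above every WT pool and a difference of 0.28 (SE 0.20). Cdk1, Cdk6, Ccnb1 and Ccne2 did not pass the filter on dim probes.

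**Figure D5:**
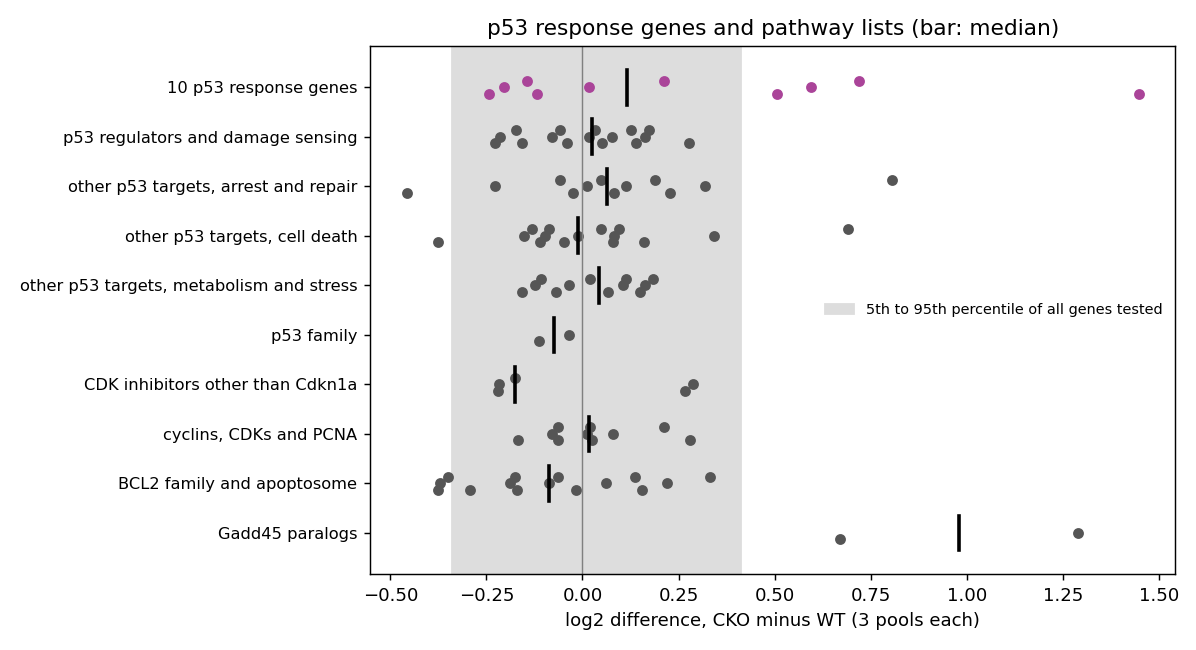
The log2 difference between CKO and WT (3 pools each) for the 10 p53 response genes, chosen with these differences known, and for the measured genes of 9 pathway lists; each point is a gene, the black bar is the median of its row, and the grey band runs from the 5th (-0.34) to the 95th (0.41) percentile of all 18334 genes tested. Cdkn1a (1.45) and Gadd45b (1.29) lie farthest to the right. Trp53 (0.72), Ccng1 (0.59), Pmaip1 (0.51), Btg2 (0.80), Dram1 (0.69) and Gadd45g (0.67) also lie above the band. Of these, Dram1 passed the filter only through CKO, and nothing is read from its place. Ccng2 (-0.46), Apaf1 (-0.38), Bak1 (-0.37), Hrk (-0.37) and Casp9 (-0.35) lie below the band.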

How the data were processed

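Signals from 8 single-channel (Cy5) Agilent arrays of hippocampal RNA were used. Per the file headers, the authors' scanner files from Agilent Feature Extraction 11.5.1.1 (11.5 per the submitters' processing notes) hold each spot's processed intensity, background-subtracted and detrended within the array but not scaled between arrays, with flags for outlier, saturated and well-above-background spots. The value table the authors deposited, also linear intensity, was an alternative; the sources used here do not say how it was scaled across arrays. Log2 of the processed signal minus the array's 75th percentile was taken, outlier spots were left out, and spots of a probe and arrays of a pool were averaged. Gene names came from a RefSeq accession for 27508 of 39429 probes, from a symbol for 3544 and a synonym for 404; the others (7973) have the file's own. A probe had to be detected above background on all arrays of WT or of CKO, which 23648 did, and the brightest represented a gene, provided 2 pools of each genotype were measured; 28 of the 18334 genes lacked a pool, none of the 10. Genotypes were compared with limma 3.58.1 (trend, two-sided, R 4.3.3) with Benjamini-Hochberg adjustment at 0.05. The fit without the block and its adjustment, but not the steps before them, were also tried on simulated gene values. Dimmer probes took their SE from a fit over all probes. A bound ("at least") sets the brighter mean against the dimmer genotype's arrays, each taken at its detection limit (its lowest above-background signal) or at the probe's value where that is higher.

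The 10 genes, the lists and the rule for naming genes were chosen with earlier results of these data known. By that rule every member and probe was named, and of each pathway list the genes past the threshold, otherwise up to 4 by unadjusted p. The 5 genes most correlated with Cdkn1a were taken after leaving out members and clone or accession names. Same-numbered pools share sex and age makeup per the labels, and their deviations from the genotype means correlated across genes at 0.55, 0.33 and 0.13 for pools 1, 2 and 3 (highest between other numbers 0.12), so the pool number was used as a block in an alternative fit. With first arrays alone these were 0.09, 0.08 and 0.12 (highest between other numbers 0.03). The values for pools 1 and 2 were thus much lower without the second arrays of pool 1. The array annotation is on build mm9 and the RefSeq promoter table on GRCm38.p6, so coordinates are given for the promoter windows only, and each was read from that table. Protein sequences were not used here.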

Additional observations from a re-analysis of the deposited data

How the results depend on the processing

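The count of genes past the threshold, 8 in the fit reported, was 5 with quantile scaling, with normexp background correction, with probes above background on all arrays or with the mean over a gene's probes, 3 with the authors' value table and 0 on slide 2 alone. A replicate block for the pool number gave 103, first arrays alone 138, and leaving off the second array of WT pool 1 gave 137; leaving out 1 pool gave 0 to 18. For the 89 pathway genes the count was 1 with the block and 0 under every other setting run, 1 pool left out included. Of the 10 members, Cdkn1a passed with the block, and Ccng1 with first arrays alone and without the second array of WT pool 1. Over all settings the Cdkn1a difference stayed between 1.21 and 1.89 and that of Trp53 between 0.41 and 0.94, while Mdm2, Bbc3 and Trp53inp1 took both signs. The pool separation of Cdkn1a, Ccng1 and Pmaip1 held in each setting. That of Trp53 was lost with normexp, with the slide as a block and on slide 2 alone. With 3 pools per genotype a small difference on this scale is within the spread of most genes, and levels near background, such as those of the dimmer Cdkn1a probes, are the least precise. The block changed no other call among the pathway genes.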
